A study of Mus musculus with 10 samples.

Results

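The MHC class I pathway was followed through 10 genes: the heavy chains H2-K1, H2-D1 and H2-T23, the light chain B2m, the peptide transporter subunits Tap1 and Tap2, the loading factor Tapbp, the immunoproteasome subunits Psmb8 and Psmb9, and the regulator Nlrc5. They were chosen by name, with earlier results of these data known, and all 10 were found among the 54532 genes of the deposited tables. RNA was sequenced from mouse pluripotent cells and fibroblasts, all labelled strain 129SV, in 10 libraries with 15862113 to 18814003 counts each. Epiblast stem cells (EpiSC), the primed state of the post-implantation epiblast, gave 5 libraries: haEpi1_1 and haEpi5_1 (haEpi1 and haEpi5 in what follows), labelled haploid and p53-KO; Epi_fema and Epi_male, labelled diploid and wild type; and p53KO2nEpiSCs, labelled diploid and p53-KO. Epiblast-like cells (EpiLC) gave p53KOhaEpiLCs and WT_haEpiLCs, both labelled haploid. Embryonic stem cells (ESC), the naive state, gave haESCs (haploid) and WT_ESCs (diploid), both labelled wild type. Mouse embryonic fibroblasts (MEF), labelled wild type and diploid, gave 1 library. The design text of the series speaks of triplicates, whereas 10 libraries were analysed here, and no label ties samples to separate cultures. The p-values therefore measure the spread between these samples, part of which may be technical. Libraries of one cell type also differ in p53 label or ploidy, so in the comparisons of cell types that spread includes those differences. Every comparison with MEF rests on 1 MEF library that was assumed to vary like the other cell types.

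Class I molecules carry peptides from inside the cell to its surface, where cytotoxic T cells read them. Proteasomes cut the peptides, the Tap1-Tap2 transporter moves them into the endoplasmic reticulum, and Tapbp (tapasin) bridges the transporter to a heavy chain paired with beta-2-microglobulin. Interferons raise most of these genes, in part through the regulator Nlrc5, and mouse pluripotent cells are known for low class I levels.

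Of the genes, 8 lie on chromosome 17 (mm10). Psmb9 (34181988 to 34187764, minus strand), Tap1 (34187553 to 34197225, plus strand), Psmb8 (34197721 to 34201454, plus strand) and Tap2 (34203527 to 34216321, plus strand) stand together within 34334 bases. Psmb9 and Tap1 run head to head and overlap by 212 bases, and whether reads were counted by strand is not given in the sources used. H2-K1 (33996017 to 34000333) and H2-T23 (36029773 to 36032855) lie on the minus strand, and Tapbp (33915899 to 33929288) and H2-D1 (35262730 to 35267499) on the plus strand. B2m lies on chromosome 2 (122147686 to 122153083) and Nlrc5 on chromosome 8 (94434356 to 94527272), both on the plus strand. Class I heavy chains resemble each other: 9.6% of the 50-base words of the H2-K1 transcripts, 12.8% of those of H2-D1 and 14.5% of those of H2-T23 also occurred in transcripts of another gene. In Tapbp the share was 23.2%, mostly with the overlapping gene Gm19412, and in Tap2 and Psmb8 it was 11.6% and 11.9%, while B2m shared none. Counts of the heavy chains, Tapbp, Tap2 and Psmb8 are uncertain for this reason, by an amount that was not measured.

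Promoters were printed for H2-K1, H2-D1 and B2m, the classical heavy chains and their light chain, because H2-D1 and B2m were low against MEF in every pluripotent library and H2-K1 was not. The sequences are the 170 bases before a RefSeq start (GRCm38.p6), 5′ to 3′ on the gene's strand: chr17:34000334-34000503 (minus) for H2-K1, chr17:35262924-35263093 (plus) for H2-D1 and chr2:122147517-122147686 (plus) for B2m. Capitals mark matches, on either strand, to AANNGAAA (an interferon regulatory factor core), GAAANNGAA (an interferon-stimulated response element core), ATTGG (a Y box) and GGGATTCCC (an NF-kappa-B site of class I enhancers, added after the windows were seen). AANNGAAA and GAAANNGAA overlap in B2m.
H2-K1: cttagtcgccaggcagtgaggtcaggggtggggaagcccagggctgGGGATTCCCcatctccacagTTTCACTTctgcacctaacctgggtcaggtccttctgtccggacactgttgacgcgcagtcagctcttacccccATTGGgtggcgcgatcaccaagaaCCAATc
H2-D1: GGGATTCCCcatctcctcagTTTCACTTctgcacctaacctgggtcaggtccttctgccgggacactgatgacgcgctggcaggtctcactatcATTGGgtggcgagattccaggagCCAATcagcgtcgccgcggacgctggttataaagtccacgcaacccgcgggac
B2m: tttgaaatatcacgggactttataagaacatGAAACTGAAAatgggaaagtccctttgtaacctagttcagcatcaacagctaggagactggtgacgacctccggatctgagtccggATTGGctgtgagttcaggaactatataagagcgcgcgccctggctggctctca
H2-K1 has 2 windows in the RefSeq table, and the bases before the downstream start were printed. Its GGGATTCCC starts 124 bases before that start, or 110 before the other, and that of H2-D1 170 bases before. Both lie in a run of 47 bases that the 2 promoters share letter for letter and that, in H2-D1, begins before the printed bases. RefSeq windows, from 250 bases before to 50 bases after the start, were at hand for 8 of the 10 genes, not for Tap2 and Nlrc5. GGGATTCCC occurred in the windows of H2-K1 and H2-D1 and in 0.4% of all 32851 windows. AANNGAAA occurred in those of H2-K1, H2-D1, H2-T23 and B2m (23.9% of all windows), GAAANNGAA in those of H2-T23 and B2m (8.6%), and ATTGG in 7 of the 8, all but Psmb8 (37.4%). GGGANTTCC, another NF-kappa-B-like motif, occurred in 0 of the 8 (1.7%). The windows of Tap1 and Psmb9 share 275 bases. These matches are letters in a window and were not measured as sites.

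Some facts of the whole series touch all results below. Trp53, the gene of p53, had a TMM-normalised CPM (counts scaled to library size) of 61.8 in haEpi5 and 50.5 in haEpi1, above the 36.9 CPM of the wild-type Epi_fema and the 28.5 CPM of the wild-type haESCs. It stood at 2.17 CPM in p53KO2nEpiSCs and 32.9 CPM in p53KOhaEpiLCs, and at 129 to 375 CPM in the other wild-type libraries, so the Trp53 level did not separate the labels and each genotype below is the one in the label. The pluripotency factor Pou5f1 stood at 378 to 1144 CPM in the 9 pluripotent libraries and at a count of 0 in MEF. The collagen gene Col1a1 stood at 24560 CPM in MEF and at 594 CPM or less elsewhere. MEF also held markers of blood cells: all 10 of the list were detected, with a sum of 1187 CPM, led by the macrophage lysozyme Lyz2 at 885 CPM, and the leukocyte gene Ptprc stood at 20.2 CPM. In the 9 pluripotent libraries that sum was 26.3 to 188 CPM, with Ptprc at 0.992 CPM or less. The 188 CPM was that of WT_ESCs, where the median over the list was 0.155 CPM and 3 of the 10 markers had no counts. The part of blood cells in the MEF level of class I was not tested, and in bulk RNA fewer cells of a type and less RNA per cell cannot be told apart.

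**Figure D1:**
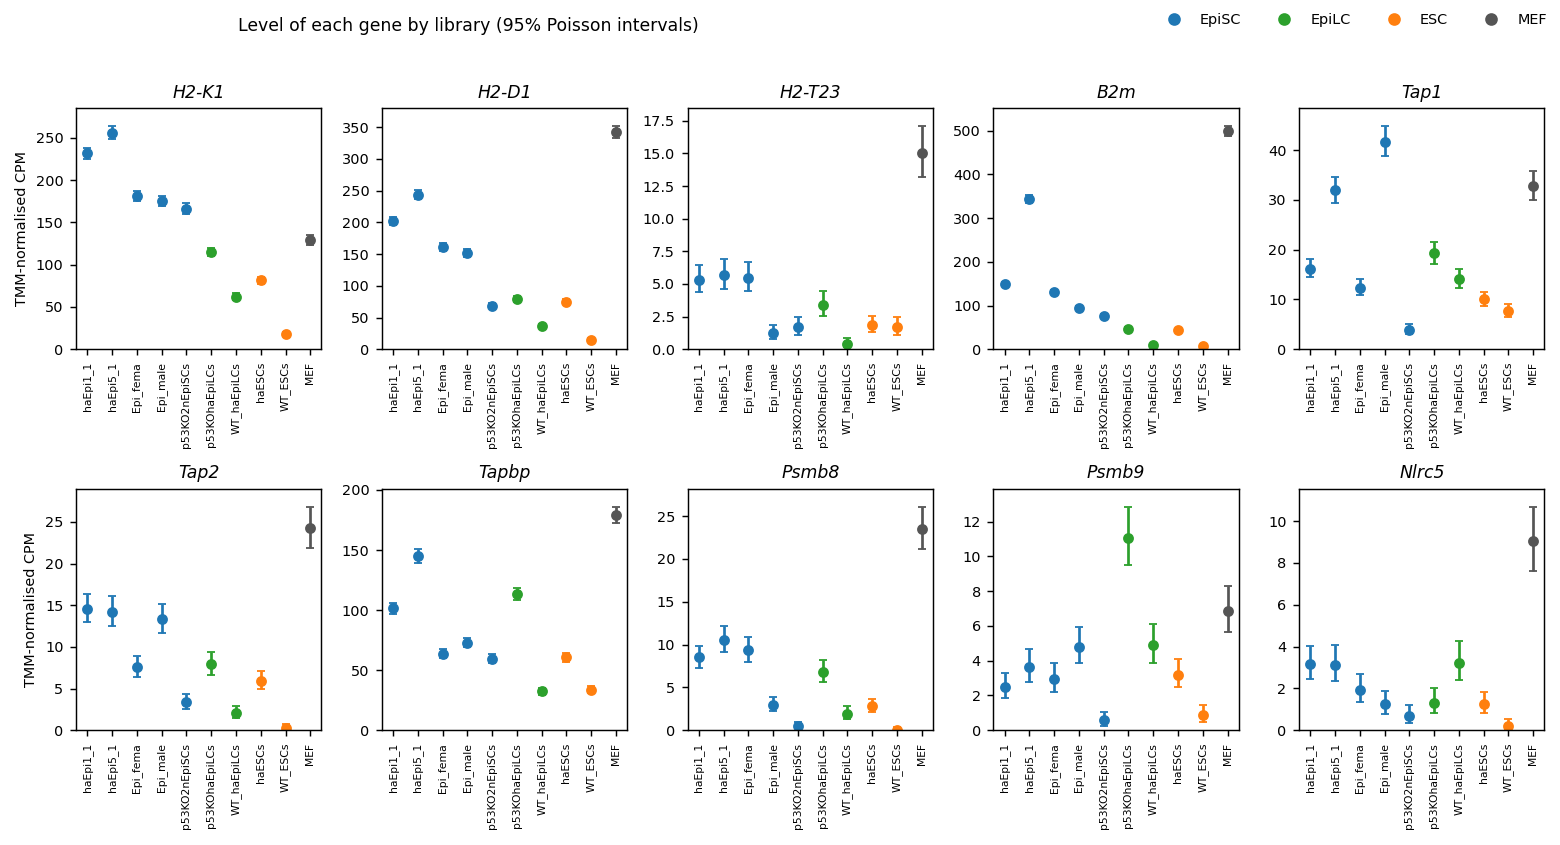
TMM-normalised CPM (vertical axis, linear from 0) of the 10 genes in each of the 10 libraries (horizontal axis), coloured by cell type, with 95% Poisson intervals. MEF is the highest library for 7 genes, and WT_ESCs the lowest for 6.

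Pluripotent cells held less B2m, H2-D1, H2-T23 and Nlrc5 RNA than MEF, by 4.58-fold (H2-D1) to 10.4-fold (B2m). All 10 log2 fold changes of the mean of EpiSC, EpiLC and ESC against MEF were negative, with a median of -2.175 against 0.197 over the 21104 genes tested. Of the 10 genes, 4 passed the threshold (edgeR's quasi-likelihood test, Benjamini-Hochberg adjusted p of 0.05): B2m, H2-D1, H2-T23 and Nlrc5, all lower, where 16.1% of all genes were called lower. In 7 of the 10 all 9 pluripotent libraries lay below MEF, against 24.2% of all genes; H2-K1, Tap1 and Psmb9 were the exceptions. Without WT_ESCs 2 genes stayed called, B2m and H2-D1. In WT_ESCs 6 of the 10 genes had their lowest value, against 13.5% of all genes. The mean log2 CPM over the 10 genes was 5.60 in MEF, 4.99 in haEpi5, 4.60 in haEpi1, 4.28 in Epi_fema, 4.14 in p53KOhaEpiLCs and Epi_male, 3.46 in haESCs, 2.87 in WT_haEpiLCs and p53KO2nEpiSCs, and 1.42 in WT_ESCs. Libraries of one cell type thus stood far apart: the EpiSC spanned the second to the ninth place of this order.

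B2m encodes the light chain that every classical class I molecule needs at the surface. In EpiSC its CPM was 345 in haEpi5, 149 in haEpi1, 93.4 in Epi_male, 131 in Epi_fema and 76.5 in p53KO2nEpiSCs. It was 46.3 CPM in p53KOhaEpiLCs, 10.8 CPM in WT_haEpiLCs, 43.8 CPM in haESCs and 6.40 CPM in WT_ESCs, and 499 CPM in MEF (95% Poisson interval 488 to 511, counting error only, as for all intervals here). Every pluripotent library lay below MEF, and every EpiSC library above every EpiLC and ESC library. Against MEF the pluripotent mean was 10.4-fold lower (log2 -3.38 ± 0.773 SE, edgeR adjusted p = 0.0108), and B2m stayed called in all 14 other settings and left-out libraries tried, with adjusted p-values from 6.38e-06 to 0.0462. By cell type the log2 fold change against MEF was -4.33 in ESC (adjusted p = 0.0249), -4.13 in EpiLC (0.0251) and -1.67 in EpiSC (0.248). Per length, B2m was also the most abundant of the 10 transcripts in MEF, at 602 FPKM, and in EpiSC, at 179 ± 121 FPKM (SD, n = 5).

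The classical heavy chains H2-K1 and H2-D1, which present peptides to T cells, did not share 1 pattern against MEF. In EpiSC the CPM of H2-D1 was 244 in haEpi5, 202 in haEpi1, 152 in Epi_male, 161 in Epi_fema and 68.3 in p53KO2nEpiSCs. Elsewhere it was 79.3 in p53KOhaEpiLCs, 36.9 in WT_haEpiLCs, 74.7 in haESCs, 15.3 in WT_ESCs and 342 in MEF. All 9 pluripotent libraries were below MEF, and p53KO2nEpiSCs overlapped the EpiLC and ESC libraries. The pluripotent mean was 4.58-fold lower (log2 -2.19 ± 0.62, adjusted p = 0.027), and the call was lost without WT_haEpiLCs (adjusted p = 0.058), with limma (0.0529) and with wild-type libraries only (0.0803). In EpiSC the CPM of H2-K1 was 256 in haEpi5, 232 in haEpi1, 175 in Epi_male, 181 in Epi_fema and 166 in p53KO2nEpiSCs. Elsewhere it was 115 in p53KOhaEpiLCs, 62.4 in WT_haEpiLCs, 81.3 in haESCs, 17.9 in WT_ESCs and 129 in MEF. All 5 EpiSC libraries lay above MEF and all EpiLC and ESC libraries below it. The log2 fold change of H2-K1 against MEF was 0.63 ± 0.636 in EpiSC (adjusted p = 0.562) and -0.44 ± 0.567 over the pluripotent mean (0.608), neither past the threshold. The H2-K1 level was 37.3% of the H2-D1 level in MEF by FPKM, and 104% (haEpi5) to 241% (p53KO2nEpiSCs) in the 9 pluripotent libraries. MEF thus stood alone in holding more H2-D1 than H2-K1, and the share of reads passed between these similar genes was not tested.

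H2-T23, the non-classical heavy chain Qa-1 that is read by receptors of natural killer cells, was far scarcer. It stood at 1.24 to 5.70 CPM in EpiSC, 0.387 and 3.40 CPM in EpiLC, 1.68 and 1.85 CPM in ESC and 15.0 CPM in MEF. The pluripotent mean was 6.43-fold lower (log2 -2.69 ± 0.829, adjusted p = 0.0384), with all 9 libraries below MEF. The adjusted p was 0.0523 without haEpi1, 0.057 without haESCs and 0.0694 without WT_ESCs. It was 0.0506 with p53 label and ploidy as covariates and 0.0578 with wild-type libraries only, so the call depends on single libraries and on the setting.

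None of the 3 peptide transport and loading genes passed the threshold against MEF, and all 3 had negative log2 fold changes. In EpiSC the CPM of Tap1 was 31.9 in haEpi5, 16.2 in haEpi1, 41.7 in Epi_male, 12.4 in Epi_fema and 3.91 in p53KO2nEpiSCs. Elsewhere it was 19.3 in p53KOhaEpiLCs, 14.1 in WT_haEpiLCs, 10.1 in haESCs, 7.70 in WT_ESCs and 32.8 in MEF. Epi_male exceeded MEF, haEpi5 came close to it, and p53KO2nEpiSCs was the lowest of all. Tap2, the other subunit, stood at 3.35 to 14.6 CPM in EpiSC, 2.07 and 7.93 CPM in EpiLC, 0.311 and 5.94 CPM in ESC and 24.2 CPM in MEF. Tapbp stood at 59.4 to 145 CPM in EpiSC, 32.5 and 113 CPM in EpiLC, 33.5 and 60.5 CPM in ESC and 179 CPM in MEF. For Tap2 and Tapbp, unlike Tap1, all 9 pluripotent libraries were below MEF. The log2 fold changes against MEF were -1.17 for Tap1 (adjusted p = 0.303), -2.16 for Tap2 (0.123) and -1.43 for Tapbp (0.0822).

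The immunoproteasome subunits Psmb8 and Psmb9, which replace the constitutive catalytic subunits Psmb5 and Psmb6, differed in pattern. In EpiSC the CPM of Psmb8 was 10.5 in haEpi5, 8.49 in haEpi1, 2.94 in Epi_male, 9.36 in Epi_fema and 0.496 in p53KO2nEpiSCs. Elsewhere it was 6.80 in p53KOhaEpiLCs, 1.94 in WT_haEpiLCs, 2.80 in haESCs, 0.0621 in WT_ESCs (a count of 1) and 23.5 in MEF. All 9 pluripotent libraries lay below MEF, and the difference (log2 -2.80 ± 1.16, adjusted p = 0.104) did not pass the threshold. In EpiSC the CPM of Psmb9 was 3.63 in haEpi5, 2.51 in haEpi1, 4.81 in Epi_male, 2.95 in Epi_fema and 0.558 in p53KO2nEpiSCs. Elsewhere it was 11.1 in p53KOhaEpiLCs, 4.90 in WT_haEpiLCs, 3.20 in haESCs, 0.870 in WT_ESCs and 6.89 in MEF. The p53KOhaEpiLCs library was above MEF, and both EpiLC libraries were above all 5 EpiSC libraries. The difference of the pluripotent mean from MEF was -0.94 ± 0.867 on the log2 scale (adjusted p = 0.458).

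Set against their constitutive partners, Psmb8 and Psmb9 were a small share in every library. By FPKM, Psmb8 reached 11.5% of Psmb5 in MEF, 0.201% (p53KO2nEpiSCs) to 3.59% (haEpi5) in EpiSC, 0.501% and 1.57% in EpiLC, and 0.022% (WT_ESCs) and 1.09% in ESC. Psmb9 reached 2.37% of Psmb6 in MEF, 0.173% to 1.21% in EpiSC, 1.10% and 2.16% in EpiLC, and 0.171% and 0.829% in ESC. The third pair was closer to balance: Psmb10 reached 102% of Psmb7 in MEF, 34.5% to 62.3% in EpiSC, 79.5% and 117% in EpiLC, and 19.9% and 26.9% in ESC. The ratio of the first pair was higher in MEF than in any other library, whereas that of the third was highest in WT_haEpiLCs. Of the 14 constitutive 20S proteasome genes all had positive log2 fold changes against MEF (median 0.607, against 0.197 over all genes), and 2 were called higher, against 10% of all genes: Psmb3 (0.92 ± 0.289, adjusted p = 0.0412) and Psmb7 (0.81 ± 0.242, adjusted p = 0.0339). Psmb5 (0.64, adjusted p = 0.0833) and Psmb6 (0.57, adjusted p = 0.139) were not, nor was Psmb10 (-0.33, adjusted p = 0.566).

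**Figure D2:**
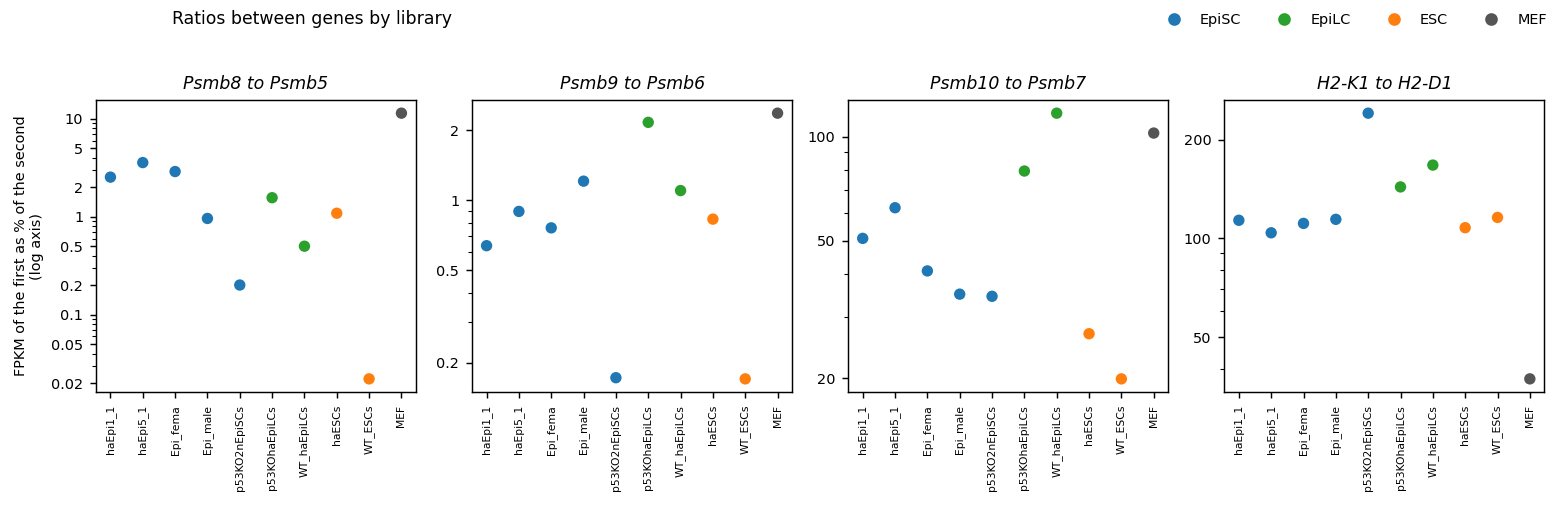
FPKM of one gene as a percentage of another (vertical axes, log scale) by library (horizontal axis), coloured by cell type: 3 immunoproteasome subunits over the constitutive subunits they replace, and H2-K1 over H2-D1. Psmb8 over Psmb5 is highest in MEF (11.5%) and lowest in WT_ESCs (0.022%), and H2-K1 over H2-D1 is lowest in MEF (37.3%).

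For Nlrc5, the transactivator that drives class I genes, the CPM in EpiSC was 3.11 in haEpi5, 3.16 in haEpi1, 1.24 in Epi_male, 1.91 in Epi_fema and 0.682 in p53KO2nEpiSCs. Elsewhere it was 1.32 in p53KOhaEpiLCs, 3.23 in WT_haEpiLCs, 1.25 in haESCs, 0.186 in WT_ESCs (a count of 3) and 9.05 in MEF. All 9 pluripotent libraries were below MEF, and the cell types overlapped among themselves. The pluripotent mean was 6.07-fold lower (log2 -2.60 ± 0.8, adjusted p = 0.0377). The adjusted p was 0.0564 without Epi_fema, 0.0697 without p53KOhaEpiLCs and 0.0509 without WT_ESCs, and 0.126 with wild-type libraries only. Per length it was the scarcest of the 10 transcripts, at 1.11 FPKM in MEF and 0.230 ± 0.126 FPKM (SD, n = 5) in EpiSC.

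By cell type, ESC stood farthest from MEF and EpiSC nearest. Both ESC libraries lay below MEF for all 10 genes, against 38.9% of all genes. In ESC 3 genes were called lower, B2m, H2-D1 (log2 -2.95, adjusted p = 0.0318) and Nlrc5 (-3.65, adjusted p = 0.0427), where 12% of all genes were; leaving out WT_ESCs gave 0, haESCs 6, and p53KOhaEpiLCs or WT_haEpiLCs 5. Leaving out haEpi1, haEpi5, Epi_fema or Epi_male gave 2, Nlrc5 being lost with adjusted p-values of 0.0579, 0.0534, 0.0614 and 0.0504. In EpiLC 2 genes were called lower, B2m and H2-D1 (-2.56, adjusted p = 0.0449), where 13.9% of all genes were, and both libraries lay below MEF for 9 of 10 genes (40.2%). Leaving out WT_haEpiLCs gave 0 in EpiLC, and leaving out haEpi1, haEpi5, Epi_fema or Epi_male gave 1, H2-D1 being lost. H2-D1 was also lost without p53KOhaEpiLCs (adjusted p = 0.0662) and with limma (0.0556). In EpiSC 0 genes were called by edgeR or DESeq2 and 1 by limma, Nlrc5, where edgeR called 14.7% of all genes in either direction; 1 of the 10 had an unadjusted p under 0.05, against 30% of all genes. All 5 EpiSC libraries lay below MEF for 8 of the 10 genes, against 30.5% of all genes. The order of the mean CPM was MEF, EpiSC, EpiLC, ESC for 7 genes. H2-K1 was higher in EpiSC than in MEF, Psmb9 was highest in EpiLC, and Nlrc5 was higher in EpiLC than in EpiSC.

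**Figure D3:**
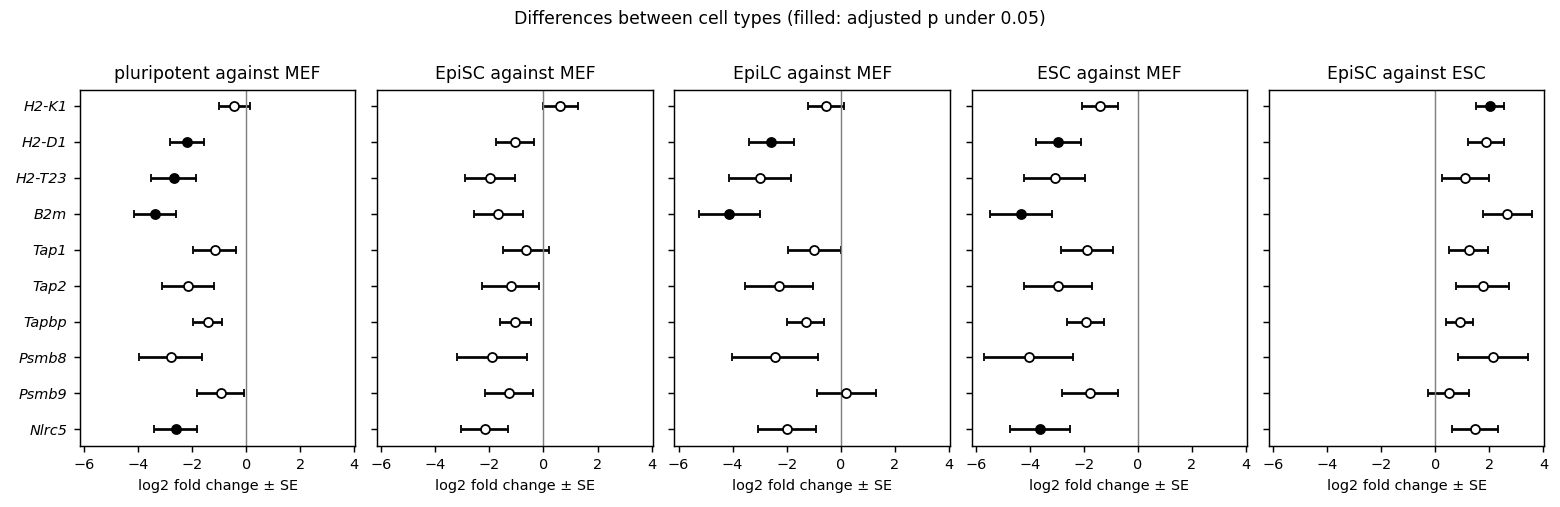
Log2 fold change ± SE (horizontal axes) of the 10 genes (vertical axis) in 5 comparisons of cell types, filled where the edgeR adjusted p was under 0.05. B2m and H2-D1 are filled in the pluripotent, EpiLC and ESC comparisons with MEF, and H2-K1 alone in EpiSC against ESC.

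Between the primed and the naive state, 1 gene passed the test. H2-K1 was 4.07-fold higher in EpiSC than in ESC (log2 2.03 ± 0.522, adjusted p = 0.027), with means of 202 ± 39.6 CPM (SD, n = 5) and 49.6 ± 44.9 CPM (n = 2); 6.86% of all genes were called higher. Without haEpi1 its adjusted p was 0.0503, without haEpi5 0.0527 and without WT_ESCs 0.0899, while leaving out haESCs raised the number of genes called to 4. B2m was 2.66 higher on the log2 scale (adjusted p = 0.0729) and H2-D1 1.88 higher (0.0763), both short of the threshold in edgeR; DESeq2 called these 2 and H2-K1. All 10 differences were positive, though that of Psmb9 turned negative without WT_ESCs, with a median of 1.612 against -0.022 over all genes. All 5 EpiSC libraries lay above both ESC libraries for 2 genes alone, H2-K1 and B2m (17.2% of all genes). The ESC libraries themselves differed, as given below. Between EpiLC and ESC 0 genes were called by edgeR, DESeq2 or limma, none with an unadjusted p under 0.05 (14.4% of all genes), and edgeR called 0.426% of all genes; both EpiLC libraries lay above both ESC libraries for 3 of the 10 (20.6%). Psmb9 differed most there (1.98 ± 0.916, adjusted p = 0.36). Between EpiSC and EpiLC 0 genes were called by edgeR and limma and 1, B2m, by DESeq2, where edgeR called 9.65% of all genes; 3 of the 10 had an unadjusted p under 0.05, against 27.7% of all genes, and leaving out haESCs or WT_ESCs gave 1. All EpiSC libraries lay above both EpiLC libraries for H2-K1 and B2m (16.2% of all genes) and below them for Psmb9 (17% of all genes; log2 -1.48 ± 0.699, adjusted p = 0.201).

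Libraries of one cell type also differed by genotype label. Within EpiSC the library labelled diploid p53-KO was the low one. Its level was the lowest of the 5 EpiSC libraries for 9 genes, H2-T23 being the exception, and the share over all genes was not computed. Among all 10 libraries it was the lowest for 2 of the 10 genes, against 6.36% of all genes. In haEpi1 and haEpi5 all 10 genes lay above it, against 35.1% of all genes, with a median log2 fold change of 1.923 against 0.047. Psmb8 differed most, 4.26 ± 1.02 (adjusted p = 0.639), and Tap1 was at 2.63 ± 0.878 (0.835), Psmb9 at 2.46 ± 0.859 (0.849), Nlrc5 at 2.21 ± 0.859 (0.886), Tap2 at 2.12 ± 0.594 (0.743), H2-T23 at 1.73 ± 1.01 (0.936), H2-D1 at 1.72 ± 0.316 (0.441), B2m at 1.71 ± 0.557 (0.835) and Tapbp at 1.07 ± 0.342 (0.835). None passed: edgeR called 0 of the 10 and 0% of all genes, although 8 of the 10 had an unadjusted p under 0.05 (5.55% of all genes). DESeq2 called 4 (Psmb8, H2-D1, Tap1 and Tap2) and limma 0, and the share of all genes that each called is not given. Without Epi_fema or Epi_male, edgeR called Psmb8 (adjusted p = 0.034 and 0.0132). H2-K1 differed least, 0.57 ± 0.288 (adjusted p = 0.918).

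The same library also lay below the wild-type EpiSC. For 9 of the 10 genes p53KO2nEpiSCs was below both Epi_fema and Epi_male, against 32% of all genes, and the median log2 fold change was -1.209 against -0.067. Psmb8 was at -3.62 ± 0.99, Tap1 at -2.80 ± 0.885, Psmb9 at -2.79 ± 0.87 and Tap2 at -1.64 ± 0.58, and H2-K1 at -0.11 ± 0.283. Their adjusted p-values were 1, and edgeR called 0 of the 10 and 0% of all genes; 5 of the 10 had an unadjusted p under 0.05 (3.86% of all genes), DESeq2 called 2 (Psmb8 and Tap1) and limma 0. Without Epi_male, edgeR called Psmb8 (adjusted p = 0.0253), a comparison of 1 library with 1 whose spread comes from haEpi1 and haEpi5. Since this group is 1 library and serves in both comparisons, they share that library. For both, the share of all genes called by DESeq2 is not given. Haploid p53-KO against wild-type EpiSC gave smaller differences: both haploid libraries lay above both wild-type ones for 6 of the 10 genes (16.4% of all genes), with a median of 0.576. B2m (1.14 ± 0.423) and Tapbp (0.86 ± 0.268) had the smallest p-values, both with an adjusted p of 0.976. There edgeR called 0 of the 10 and 0% of all genes, 2 of the 10 had an unadjusted p under 0.05 (3.53% of all genes), and DESeq2 and limma called 0.

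Haploid ESC held more class I RNA than diploid ESC in the single pair of libraries, read here as ratios of 2 libraries with no test. All 10 log2 ratios were positive, with a median of 2.176 against 0.012 over the 16198 genes with 20 counts or more in either library, and 7 genes were at least 2-fold higher, against 18.6% of those genes. B2m was 6.85-fold higher (878 against 103 counts, 95% interval of the ratio 5.58 to 8.49), H2-D1 4.88-fold (1495 against 246 counts) and H2-K1 4.55-fold (1629 against 288 counts). Psmb8 had 56 counts against 1, a ratio of 45 with an interval of 7.75 to 1810, Nlrc5 25 against 3, a ratio of 6.7 (2.04 to 34.7), and Tap2 119 against 5, a ratio of 19.1 (7.97 to 60). H2-T23 (1.10-fold, 0.653 to 1.88) and Tap1 (1.31-fold, 1.04 to 1.65) were nearest to 1. The summed fibroblast markers were 1.66% of MEF in haESCs and 0.0296% in WT_ESCs, with Col1a1 at 594 and 1.68 CPM, and their part in this difference was not tested.

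In the single EpiLC pair, the library labelled p53-KO was the higher one. Of the 10 genes 9 had a positive log2 ratio of p53KOhaEpiLCs to WT_haEpiLCs, 7 of them at least 2-fold, against 15.6% of the 14922 genes with 20 counts or more. The median was 1.455, against 0.012 over those genes. H2-T23 was 8.78-fold higher (54 against 6 counts, interval 3.78 to 25), B2m 4.27-fold (736 against 168 counts), Tapbp 3.49-fold (1799 against 503 counts), Psmb8 3.51-fold (108 against 30 counts) and H2-K1 1.84-fold (1826 against 967 counts). Nlrc5 went the other way, with 21 against 50 counts, a ratio of 0.41 (0.234 to 0.695). Other markers differed in this pair too. The naive markers summed to 699 CPM in p53KOhaEpiLCs and 111 CPM in WT_haEpiLCs, and the primed epiblast markers to 1046 and 3842 CPM. The blood cell markers summed to 159 and 26.3 CPM, with medians over the list of only 0.630 and 0.194 CPM. The fibroblast markers summed to 123 and 30.6 CPM, with medians of 5.60 and 0.387 CPM. The part of these markers in the class I difference was not tested. The EpiLC library with less Nlrc5 was thus the one with more of the other 9 transcripts.

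**Figure D4:**
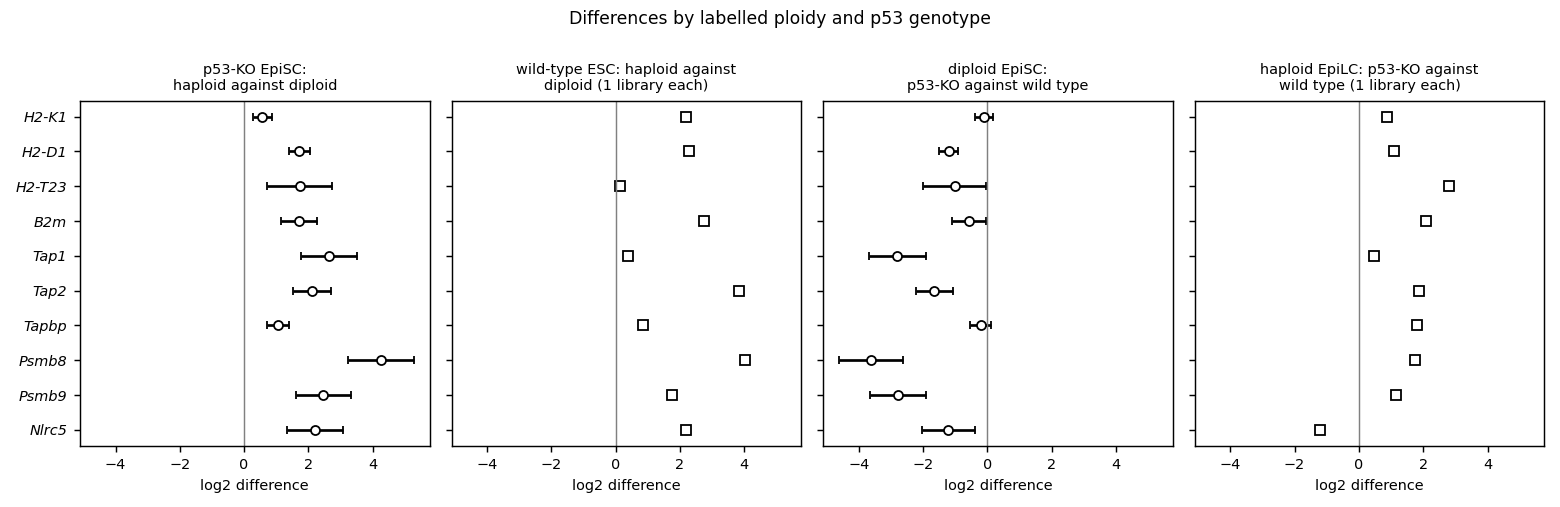
Log2 differences (horizontal axes) of the 10 genes (vertical axis) by labelled ploidy in EpiSC and ESC and by p53 label in EpiSC and EpiLC. Circles are edgeR fold changes ± SE, none with an adjusted p under 0.05, and squares are ratios of single libraries with no error; haploid libraries lie to the right for all 10 genes in both cell types.

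Over cell types neither label passed a test. In a fit of the 9 pluripotent libraries with cell type, p53 label and ploidy, the haploid minus diploid difference was positive for all 10 genes, with a median of 1.432 against 0.018 over all genes. Without p53KO2nEpiSCs, H2-T23 and Tap1 turned negative. Nlrc5 (2.37 ± 0.549, adjusted p = 0.939) and H2-D1 (1.51 ± 0.523, adjusted p = 0.939) were the 2 with an unadjusted p under 0.05 (4.72% of all genes), and 0 of the 10 and 0% of all genes were called by edgeR, with 0 of the 10 by DESeq2 and limma. The p53 label gave 3 positive and 7 negative differences, 1 with an unadjusted p under 0.05 (Nlrc5, -1.32 ± 0.522, adjusted p = 1; 3.07% of all genes), and 0 of the 10 and 0% of all genes were called by edgeR, with 0 by DESeq2 and limma. The signs of H2-K1, H2-T23, B2m, Tap1 and Tapbp in the p53 term turned when single libraries were left out. Whether the p53 label acted differently in diploid EpiSC and haploid EpiLC was tested as an interaction. Cell type and ploidy cannot be told apart in this test, and every group in it but the wild-type EpiSC was 1 library. Of the 10 genes 8 had an unadjusted p under 0.05 (7.67% of all genes). After adjustment 0 of the 10 and 0% of all genes passed in edgeR, DESeq2 called 2 and limma 0. The share of all genes called by DESeq2 is not given. Without Epi_fema or Epi_male, edgeR called 1. The interaction of ploidy with EpiSC or ESC set p53-KO EpiSC against wild-type ESC. Cell type and p53 label cannot be told apart in it, and every group but the haploid EpiSC was 1 library. It gave 1 gene with an unadjusted p under 0.05, H2-K1 (6.97% of all genes). There 0 of the 10 and 0% of all genes were called by edgeR, with 0 by DESeq2 and limma.

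The rest of the class I pathway was read from lists of related genes, each count to be set against the shares of all genes called in the same comparison. Of 14 other class I heavy chains 3 were called higher in pluripotent cells than in MEF and 0 lower, where 10% and 16.1% of all genes were, with a median of -0.112 against 0.197 over all genes. H2-Bl had the smallest adjusted p (0.000683), with a mean of 41.0 CPM in EpiSC, 23.6 CPM in EpiLC and 13.2 CPM in ESC, against 0.191 CPM in MEF (3 counts). In EpiSC against ESC, where 6.86% of all genes were called higher and 10.1% lower, 4 of these were higher, among them H2-Q4 (2.74 ± 0.543, adjusted p = 0.00901), and 1 was lower, H2-M5 (-6.10 ± 0.72, adjusted p = 0.000872), which stood at 50.4 CPM in ESC and 0.75 CPM in EpiSC. Of 5 class I-like molecules that were tested 3 were lower than in MEF: Mr1, which presents vitamin metabolites (-5.58 ± 0.853, adjusted p = 0.00158), Fcgrt, the neonatal Fc receptor (-4.14 ± 0.479, adjusted p = 0.000448), and Hfe, a regulator of iron uptake (-3.62 ± 0.789, adjusted p = 0.00871). Of 11 loading chaperones and trimming enzymes 3 were lower, Erap1, which trims peptides (-1.99 ± 0.625, adjusted p = 0.0412), Pdia3 (-1.10 ± 0.355, adjusted p = 0.0457) and the translocon subunit Sec61a1 (-0.85 ± 0.212, adjusted p = 0.0156). The chaperones Calr (-1.05, adjusted p = 0.0867) and Canx (-0.32, adjusted p = 0.43) did not pass. In EpiSC against ESC 1 of the 11 was lower, the aminopeptidase Lnpep (-0.93 ± 0.245, adjusted p = 0.0295). Of 8 class II pathway genes tested against MEF 1 was higher and 1 lower (H2-DMa, -1.84 ± 0.53, adjusted p = 0.029), and of 4 ligands of the killer cell receptor NKG2D 0 were called.

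Of 16 transcriptional regulators of class I, 4 were lower than in MEF and 1 higher, near the shares of all genes (16.1% and 10%). Irf2, an interferon regulatory factor, was lower (-3.64 ± 1.02, adjusted p = 0.0262), at 3.62 to 7.72 CPM in EpiSC, 0 and 0.755 CPM in EpiLC, 0.0621 and 2.75 CPM in ESC and 18.4 CPM in MEF. Irf8 was lower too (-2.70 ± 0.663, adjusted p = 0.0149), and Nfyb, a subunit of the CCAAT-binding factor, was higher (1.44 ± 0.307, adjusted p = 0.00795). Irf1 (0.06 ± 0.514, adjusted p = 0.97) and Rfx5 (0.11 ± 0.362, adjusted p = 0.873) did not pass. Ciita, the class II counterpart of Nlrc5, did not pass against MEF (-0.52, adjusted p = 0.801) and was lower in EpiSC than in ESC (-3.16 ± 0.95, adjusted p = 0.0472), at a mean of 0.17 and 1.57 CPM. Of 13 interferon receptor and signalling genes 7 were lower than in MEF and 1 higher, with the receptor chains Ifngr2 (-2.71 ± 0.602, adjusted p = 0.00945) and Ifnar2 (-2.42 ± 0.342, adjusted p = 0.00111) and the kinase Jak2 (-2.78 ± 0.437, adjusted p = 0.00183) among the lower. Of 9 polycomb and histone methylation genes 5 were higher in pluripotent cells than in MEF, led by Jarid2 (2.83 ± 0.377, adjusted p = 0.000863) and Mtf2 (2.55 ± 0.373, adjusted p = 0.0013), and Ezh2, the methyltransferase, was among them (1.77 ± 0.37, adjusted p = 0.00717). In EpiSC against ESC 4 of the 9 were lower and 0 higher, among them Mtf2 (-1.95 ± 0.222, adjusted p = 0.000728) and Suz12 (-1.18 ± 0.186, adjusted p = 0.00336).

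Interferon-stimulated genes, which report on interferon signalling, were read beside class I. All 29 of the list had negative log2 fold changes against MEF (median -1.716), 2 of them called, a smaller share than the 16.1% of all genes: Dhx58 (-2.72 ± 0.671, adjusted p = 0.0152) and Ifit2 (-2.65 ± 0.437, adjusted p = 0.00231). Their summed level as a share of MEF was 103% in haEpi5, 46.8% in haEpi1, 45.4% in Epi_fema, 39.9% in Epi_male and 11.1% in p53KO2nEpiSCs. It was 101% in p53KOhaEpiLCs, 22.6% in WT_haEpiLCs, 26.5% in haESCs and 33.2% in WT_ESCs. The sum was thus high in haEpi5 and low in p53KO2nEpiSCs among EpiSC, and high in p53KOhaEpiLCs among EpiLC, as was the mean of the 10 class I genes, whereas in ESC it was higher in the diploid library, where class I was lower; by its median gene, WT_ESCs stood at 2.03% and haESCs at 16.3% of MEF. In EpiSC against ESC 2 of the 29 were higher, near the 6.86% of all genes called higher there: Ifit2 (3.65 ± 0.533, adjusted p = 0.00232) and Bst2 (3.17 ± 0.822, adjusted p = 0.0275). Between haploid and diploid p53-KO EpiSC all 29 differences were positive (median 3.663), and 0 were called. The fibroblast markers summed to 1.27% to 2.93% of MEF in EpiSC, highest in haEpi5, and the blood cell markers to 3.03% to 10.2%, also highest in haEpi5. B2m in haEpi5 stood at 69.0% of MEF and H2-K1 in all 5 EpiSC libraries at 129% to 198%. The part of other cells in the EpiSC levels was not tested.

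**Figure D5:**
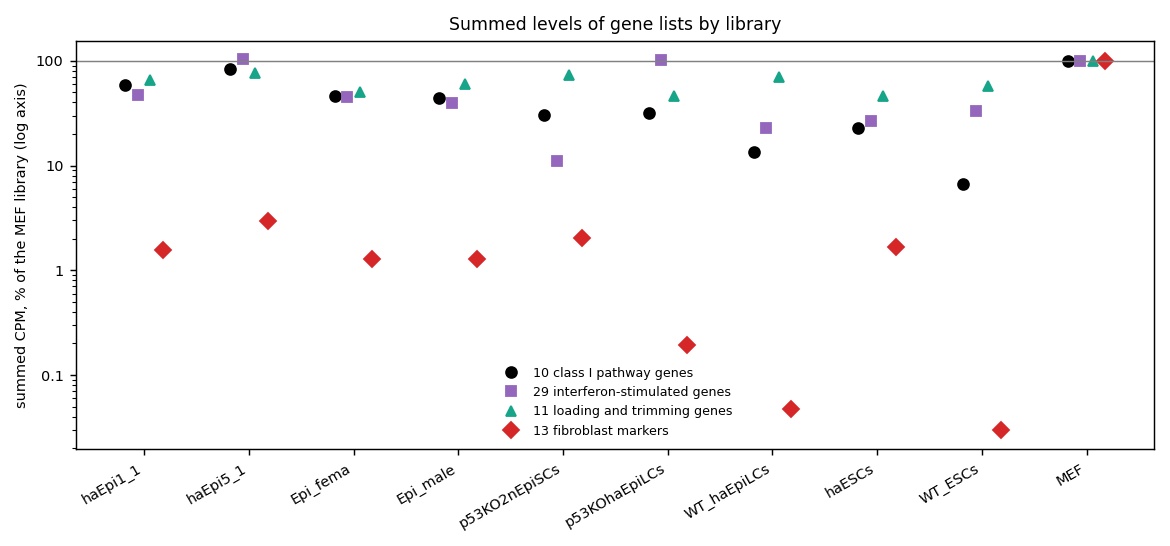
Summed CPM of 4 gene lists in each library (horizontal axis) as a percentage of the MEF library (vertical axis, log scale). The interferon-stimulated genes reach MEF in haEpi5 (103%) and p53KOhaEpiLCs (101%), and the fibroblast markers lie at 2.93% or less in every pluripotent library.

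The 10 genes did not vary as 1 block across libraries. H2-D1 and B2m had the highest correlation of any pair across the 10 libraries (Pearson's r of log2 CPM 0.971), and H2-D1 had r = 0.96 with the mean of the other 9 genes, Tap2 0.953 and Psmb8 0.944. Psmb9 had the lowest, 0.562, and its lowest single value was 0.23 with H2-T23. Over the 9 pluripotent libraries the value was 0.95 for H2-D1 and 0.49 for Psmb9. Among 11893 genes with a mean of 5 CPM or more, those most like the mean of the 10 genes across the 10 libraries were Ube2g2 (r = 0.963), Tmem115 (0.962), Mcrip1 (0.957), Lgals3bp (0.956), Ifit1 (0.954) and Ltbr (0.95). Over the 9 pluripotent libraries they were Tmem115 (0.966), Josd2 (0.965), Gch1 (0.958), Ifit1 (0.956), H2-T10 (0.954) and Ube2g2 (0.95). These values describe the libraries, which share cell type, depth and scaling, and were the highest of many. With a prior count of 0.5 in place of 2, Ifit1 came first in both, and 5 of the 6 genes were shared. Ifit1, an interferon-induced antiviral gene, stood at 64.5 CPM in haEpi5, 45.2 CPM in MEF and 20.8 CPM in p53KOhaEpiLCs, at 0.248 CPM in p53KO2nEpiSCs and at a count of 0 in WT_ESCs, where a count of 0 allows up to 0.186 CPM (3 counts).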

How the data were processed

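Levels were read from 2 deposited tables of 54532 genes and 10 libraries. Per the submitters' processing notes, the authors made the deposited counts, whole reads per gene, with HISAT2 2.0.5 on mm10 and featureCounts 1.5.0-p3. The authors' FPKM follow from the counts and gene lengths with 1 scale per library, to within a relative 1.7e-08. No 2 libraries agreed within sampling noise (lowest chi-square per degree of freedom 38.89).

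Genes were tested with edgeR 4.0.16 (R 4.3.3) on the counts, with filterByExpr, TMM and the quasi-likelihood F test at a Benjamini-Hochberg adjusted p of 0.05 over all genes tested. Cell types shared 1 fit of 10 libraries, and EpiSC groups 1 of 5. The p53 and ploidy terms came from the 9 pluripotent libraries. The SE is the absolute log2 fold change over the square root of F. Single pairs are log2 ratios with a prior count of 2. DESeq2 1.42.0, limma 3.58.1 on log2(FPKM + 1), no count filter, covariates, wild-type libraries only and leaving out each library were alternatives. Shares of all genes called are from the main edgeR setting, and those of the alternatives are not given. Tests were also run on simulated counts with a single fixed spread for all genes. That cannot show how they perform at the spread of these libraries.

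The 10 genes and the lists were chosen with earlier results of these data known. All 10 genes are named. From each list the 3 largest changes past the threshold against MEF and in EpiSC against ESC were eligible, as were Psmb5, Psmb6, Psmb7, Psmb10, Irf1, Irf2, Rfx5, Ciita, Calr, Canx, Pdia3, Erap1, Trp53, Pou5f1, Col1a1, Ptprc and Cdh5. A further gene of the rule is not reported here. Genes outside this rule were named after their values were seen.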

Additional observations from a re-analysis of the deposited data

Results flagged for a closer look

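Among the 5 EpiSC libraries, B2m in haEpi5 stood apart from the others: its 345 CPM exceeded the next library, haEpi1 at 149 CPM, by a gap that was 0.728 of the whole range of the 5, above Dixon's 95% critical value for 5 samples. The ratio was taken on CPM, and on the log2 scale it was not computed. The 5 libraries also differ in p53 label and ploidy. In a single normal population, which was not checked, chance alone gives such a gap in about 1 of 20 groups. The other 9 genes were looked at in the same way, with none beyond the value. In haEpi5 the fibroblast markers summed to 2.93% and the blood cell markers to 10.2% of MEF, the highest of the EpiSC, and the interferon-stimulated genes to 103%. Their part in the B2m level was not tested.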

How the results depend on the processing

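Of 120 log2 fold changes (the 10 genes in 12 comparisons), 21 changed sign in some setting, among them 0 of the 10 called. Of the 57 whose values are printed here 0 changed sign. These were picked for printing and do not stand for the rest, and the signs named above as turning lie outside them. The number of genes called moved with the setting. The share of all genes called in each of these settings is not given, so the numbers that follow have no background. With DESeq2 it was 5 (ESC against MEF), 3 (EpiSC against ESC), 1 (EpiSC against EpiLC), 4 (haploid against diploid p53-KO EpiSC), 2 (p53-KO against wild-type diploid EpiSC) and 2 (p53 interaction). Without the count filter it was 7 (pluripotent against MEF), 7 (ESC against MEF), 3 (EpiSC against ESC), 3 (EpiSC against EpiLC), 4 and 2 (the same 2 EpiSC comparisons) and 5 (p53 interaction). With limma it was 1 (EpiSC against MEF), 6 (ESC against MEF) and 2 (EpiSC against ESC). With p53 label and ploidy as covariates it was 1 (EpiSC against MEF), 4 (EpiLC against MEF), 7 (ESC against MEF), 3 (EpiSC against ESC) and 2 (EpiSC against EpiLC). With wild-type libraries only it was 2 (pluripotent against MEF) and 0 for EpiLC and ESC against MEF and EpiSC against ESC. Leaving out 1 library gave 2 to 5 (pluripotent against MEF), 0 to 3 (EpiLC against MEF), 0 to 6 (ESC against MEF), 0 to 4 (EpiSC against ESC) and 0 to 1 (EpiSC against EpiLC, both comparisons of p53KO2nEpiSCs and the p53 interaction). The EpiLC pair's median was 1.676 by total counts. The cause of these moves was not tested. Psmb8, Nlrc5 and Tap2 in diploid ESC rest on 1, 3 and 5 counts. No paired analysis was possible because the labels give no replicate numbers shared between groups.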
